A study of Mus musculus with 19 samples.

Results

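In all, 10 genes that mark or serve pericytes, vascular smooth muscle and ATP-sensitive potassium (KATP) channels were followed through a mouse hindlimb ischemia experiment: Abcc9, Kcnj8, Kcnj11, Higd1b, Myh11, Lmod1, Rgs5, Pdgfrb, Cspg4 and Mcam. Their probes were taken by name, as every probe whose target name on the array equals one of the 10 symbols, with all probes of a gene kept apart. The genes themselves were chosen with earlier results of these data known, so counts and medians over them are no independent test. The 10 genes are among 30774 names on the array and have 16 probes. Of these, 13 probes, with at least 1 for each gene, were kept because 3 or more of the 19 arrays detected them (detection p under 0.05), and 3 were not: a pair of Abcc9 probes, detected on 2 arrays and on 1 array, and a Myh11 probe detected on 0 arrays. No count or median below covers these 3 probes.

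The study profiled RNA of the gastrocnemius, a calf muscle, from CD1 mice that were 2 months old, with 19 Illumina bead arrays in 5 groups. The 3 untreated arrays are labelled with no oligonucleotide and no ischemia. In the other groups a locked nucleic acid (LNA) oligonucleotide, a chemically stabilised short strand that binds a microRNA, was injected into the tail vein at 12 mg/kg in 200 µl saline, 2 days before the left femoral artery was dissected to make one hindlimb ischemic, and muscle was harvested 3 days after surgery. Scramble, a control sequence, was given for 4 non-ischemic and 4 ischemic arrays, and anti-miR-210, complementary to the hypoxia-induced microRNA miR-210, for 4 non-ischemic and 4 ischemic arrays. The labels call the non-ischemic muscles of treated mice controls without saying if they came from the opposite leg of the operated mice. Nothing in the labels makes each replicate a different animal, so the p-values cover only the variation among these arrays, part or all of which may be technical. The oligonucleotide acts in the whole animal and not in a chosen cell type.

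A KATP channel joins pore subunits, encoded by Kcnj8 or Kcnj11, with sulfonylurea receptor subunits, encoded by Abcc9 or Abcc8. It opens when cellular ATP falls, which hyperpolarises the cell. The channel of vascular smooth muscle and pericytes is known mainly for Kcnj8 with Abcc9 and relaxes vessels, while that of skeletal muscle fibres uses Kcnj11 with Abcc9. Pericytes wrap capillaries and are held there by platelet-derived growth factor (PDGF) from the endothelium, which acts through the receptor Pdgfrb. Of the same cells, Rgs5 limits signalling of G protein-coupled receptors, Higd1b is a mitochondrial protein used as a marker, Cspg4 is the proteoglycan known as NG2, and Mcam is an adhesion molecule that endothelium also carries. Myh11, the smooth muscle myosin heavy chain, and Lmod1, an actin filament nucleator, belong to the contractile apparatus of vessel walls.

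The oligonucleotide that separates the groups pairs with bases 2 to 16 of the mature miR-210-3p. The 3 sequences are shown because every comparison below rests on them. Capitals in the first mark the seed, bases 2 to 8 of the microRNA, and in the second the bases that pair with it. The microRNA is from RefSeq, build GRCm38.p6, chr7:141221407-141221428 on the minus strand, and the oligonucleotides are those the labels give. No probe here measures miR-210.
mmu-miR-210-3p: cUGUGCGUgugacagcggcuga
anti-miR-210: gctgtcacACGCACA
scramble: cgtctagccacctag

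Mean deposited intensity ran from 123.6 to 297.6 over the arrays, with the scramble ischemic group dimmest (153.9 ± 28.6, SD, n = 4) and the anti-miR-210 ischemic group at 229.5 ± 37.7 (SD, n = 4). All 10 muscle fibre markers were detected on all 19 arrays, as the tissue label implies. In bulk muscle, fewer cells of a type and less RNA per cell cannot be told apart. Macrophage markers rose in ischemia for 7 of 8 genes after scramble and 8 of 8 after anti-miR-210, with median log2 changes of 3.69 and 3.96. Endothelial markers rose for 6 of 8 and 5 of 8 (medians 1.50 and 1.02), and fibroblast markers for 2 of 7 and 6 of 7 (medians 0.45 and 1.35). Of 10 fibre markers, 5 fell and 1 rose after scramble, and 4 fell and 1 rose after anti-miR-210 (medians −0.74 and −0.58). Over all probes tested, 23.6% were called higher and 25.3% lower after scramble, by the threshold given below. After anti-miR-210 these shares were 23.8% and 24.7%. The part of the marker changes in the member changes below was not tested. Liver markers averaged 8.06, 9.91 and 11.47 on the untreated arrays and 7.55 on scramble non-ischemic replicate 1, against 4.24 to 4.45 on the other 15 arrays. Levels below are normalized log2 intensities, and changes are log2 differences with the standard error (SE) of the limma fit, called at a Benjamini-Hochberg adjusted p under 0.05 over 21083 probes.

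In ischemia after scramble, 6 of the 13 probes were lower, 3 were higher and 4 were not called, against 25.3% lower, 23.6% higher and 48.9% in either direction over all probes tested. After anti-miR-210, 5 were lower, 3 higher and 5 not called, against 24.7% lower, 23.8% higher and 48.5% in either direction. The median change was −0.68 after scramble and −0.59 after anti-miR-210, against −0.03 and −0.01 over all probes. The lower genes after scramble were Abcc9, Kcnj8 and Kcnj11 of the KATP channel, Higd1b and the contractile genes Myh11 and Lmod1. After anti-miR-210 they were the same genes without Kcnj8, and the higher probes all belonged to Mcam in both treatments. With both directions counted, 9 and 8 of the 13 probes were called, which stand for 7 and 6 of the 10 genes, where near 1 in 2 of all probes was called, so a call by itself sets no member apart.

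**Figure D1:**
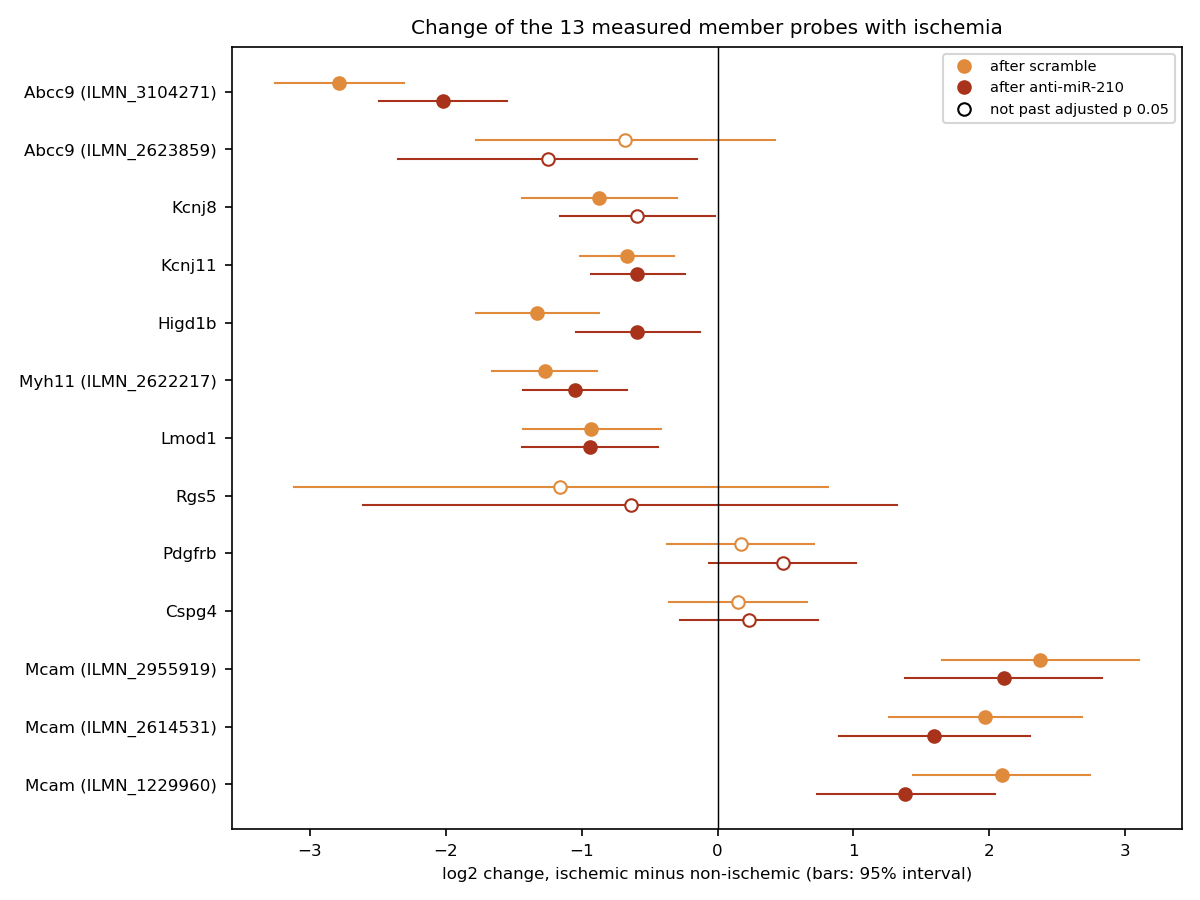
Log2 change of the 13 measured probes, ischemic minus non-ischemic, with 95% intervals (n = 4 and 4 arrays in each comparison). Filled points passed adjusted p under 0.05 in the limma fit. Abcc9 at the top and Mcam at the bottom lie on opposite sides of 0, and the wide Rgs5 interval crosses it.

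Abcc9, the sulfonylurea receptor subunit, gave the strongest fall of the members. Its probe ILMN_3104271 read 8.35, 8.59, 8.76 and 8.40 on the scramble non-ischemic arrays and 6.07, 6.09, 5.47 and 5.32 on the scramble ischemic arrays. With anti-miR-210 it read 8.93, 8.80, 8.65 and 8.71 without ischemia and 6.68, 6.65, 7.51 and 6.18 with it. In both treatments every ischemic array lay below every non-ischemic array, and the untreated arrays, at 8.69, 8.48 and 8.42, lay with the non-ischemic ones. The fall was 6.89-fold after scramble (log2 change −2.79 ± 0.23 SE, adjusted p = 1.02e-08, limma) and 4.05-fold after anti-miR-210 (−2.02 ± 0.23, adjusted p = 5.4e-07, limma).

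The other Abcc9 probe that passed the filter, ILMN_2623859, was detected on 13 arrays and did not pass the test in either treatment. It read 5.66, 4.20, 6.43 and 4.59 on the scramble non-ischemic arrays and 4.76, 4.41, 4.84 and 4.16 on the scramble ischemic arrays, so the groups overlapped. With anti-miR-210 it spread from 4.30 to 7.54 without ischemia and from 4.28 to 4.76 with it. Its change was −0.68 ± 0.52 (adjusted p = 0.313, limma) after scramble and −1.25 ± 0.52 (adjusted p = 0.0566) after anti-miR-210. Both probes had a negative change, but only the first was called, and the stretch of transcript that each probe targets was not analysed here.

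Kcnj8, the pore subunit encoded beside Abcc9, read 6.62, 6.45, 6.21 and 6.24 on the scramble non-ischemic arrays and 4.88, 5.29, 5.88 and 6.01 on the scramble ischemic arrays. The ischemic values lay below the non-ischemic ones without overlap, with a fall of 1.82-fold (−0.87 ± 0.27, adjusted p = 0.0124, limma). The call was lost without scramble ischemic replicate 1, where the value was −0.65 (adjusted p = 0.056), and with array brightness as a covariate (adjusted p = 0.0674). After anti-miR-210 the values were 6.01, 6.28, 6.14 and 6.54 without ischemia and 5.26, 5.24, 6.11 and 6.02 with it, which overlapped, and the change of −0.59 ± 0.27 (95% interval −1.16 to −0.02) was not called (adjusted p = 0.0849, limma).

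Kcnj11, the pore subunit of the fibre channel, sat close to the detection limit, which lay between 4.40 and 4.65 over arrays. It read 5.14, 4.86, 5.00 and 5.20 on the scramble non-ischemic arrays, detected on 4 of 4, and 4.31, 4.49, 4.22 and 4.52 on the scramble ischemic arrays, detected on 1 of 4. The fitted change was −0.67 ± 0.17 (adjusted p = 0.00237, limma), with no fold given because the ischemic mean of 4.39 lay below the detection limit of those arrays. After anti-miR-210 it was detected on 3 of 4 non-ischemic arrays, at 4.41 to 5.31, and on 0 of 4 ischemic arrays, at 4.21 to 4.41, so it was at least 1.38-fold lower there (adjusted p = 0.00629, limma). The call after scramble did not hold with the arrays scaled to a common median, where the value was −0.43 (adjusted p = 0.0626), nor with array brightness as a covariate.

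Kcnj8 and Abcc9 lie on chromosome 6 of build GRCm38.p6, at chr6:142564837-142571614 and chr6:142587862-142702766, with 16247 bases between them and 0 other genes in that table there. Kcnj11 lies at chr7:46097123-46100952, beside the receptor gene Abcc8 at chr7:46104523-46180039. The promoters of Abcc9 and Kcnj8 are shown because these neighbouring genes both fell after scramble, with those of Lmod1, which fell in both treatments, and Mcam, which rose. Each is 250 bases before to 50 after an annotated transcript start, from RefSeq, at chr6:142702225-142702524 and chr6:142571565-142571864 on the minus strand and chr1:135324563-135324862 and chr9:44134408-44134707 on the plus strand. Abcc9 has 5 curated RefSeq transcripts, and its window lies within the gene, whose span begins further upstream at chr6:142702766. Capitals mark ACGTG and GCGTG, which are cores of the hypoxia response element, and CANNTG, the E-box, on either strand.
Abcc9: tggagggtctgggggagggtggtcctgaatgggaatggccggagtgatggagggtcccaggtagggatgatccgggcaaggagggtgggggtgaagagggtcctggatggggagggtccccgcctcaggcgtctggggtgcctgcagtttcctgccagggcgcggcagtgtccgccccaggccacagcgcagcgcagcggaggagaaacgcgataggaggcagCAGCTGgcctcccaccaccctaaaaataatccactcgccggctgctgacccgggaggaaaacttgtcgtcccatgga
Kcnj8: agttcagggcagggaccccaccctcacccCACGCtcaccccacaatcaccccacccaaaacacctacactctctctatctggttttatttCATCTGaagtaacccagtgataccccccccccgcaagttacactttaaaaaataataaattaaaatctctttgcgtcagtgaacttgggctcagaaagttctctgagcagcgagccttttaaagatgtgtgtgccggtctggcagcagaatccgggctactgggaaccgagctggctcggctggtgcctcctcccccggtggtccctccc
Lmod1: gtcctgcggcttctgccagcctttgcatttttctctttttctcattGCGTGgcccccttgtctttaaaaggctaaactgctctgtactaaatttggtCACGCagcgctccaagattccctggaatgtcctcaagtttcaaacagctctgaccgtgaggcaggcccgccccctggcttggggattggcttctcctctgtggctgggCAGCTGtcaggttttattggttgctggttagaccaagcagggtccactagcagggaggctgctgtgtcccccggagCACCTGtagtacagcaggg
Mcam: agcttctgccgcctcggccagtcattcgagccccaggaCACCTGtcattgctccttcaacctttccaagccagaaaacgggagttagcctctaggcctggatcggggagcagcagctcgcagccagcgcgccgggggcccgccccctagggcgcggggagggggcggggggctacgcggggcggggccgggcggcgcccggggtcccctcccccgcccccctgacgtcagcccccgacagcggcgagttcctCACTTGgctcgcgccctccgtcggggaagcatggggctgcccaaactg

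CANNTG was found once each for Abcc9 and Kcnj8 and at 2 places each for Lmod1 and Mcam, and 72.3% of 32851 promoters of this length hold it. GCGTG was found at 1 place for Kcnj8 and at 2 places for Lmod1, against 32.4% of the promoters. ACGTG, held by 19.6%, and the CArG box, a site of the smooth muscle regulator Srf held by 1.63%, were found in 0 of the 4. With ACGTG in 0 of the 4, no match of CANNTG could overlap it. These are letters in a window and say nothing of factors bound there.

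Higd1b, the pericyte marker, read 6.35, 5.98, 5.79 and 6.19 on the scramble non-ischemic arrays and 4.47, 4.55, 5.08 and 4.90 on the scramble ischemic arrays. No values overlapped, and the fall was 2.51-fold (−1.33 ± 0.22, adjusted p = 4.34e-05, limma). The scramble ischemic values of 4.47 and 4.55 lay at or just above the detection limit of those arrays, 4.47 and 4.49. After anti-miR-210 it read 5.99, 6.15, 5.60 and 5.83 without ischemia and 5.01, 5.20, 5.80 and 5.21 with it, overlapping through replicate 3 of the ischemic group. The fall of 1.50-fold (−0.59 ± 0.22) was called (adjusted p = 0.0308, limma). The call was lost when any 1 of 5 anti-miR-210 arrays was left out (replicates 1 and 2 without ischemia, and 1, 2 and 4 with it), where adjusted p ran from 0.0659 to 0.0954. It was also lost without the filter on dim probes (adjusted p = 0.0662, limma).

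Myh11, measured by its detected probe ILMN_2622217, read 6.49, 6.95, 6.46 and 6.98 on the scramble non-ischemic arrays and 5.78, 5.17, 5.31 and 5.54 on the scramble ischemic arrays. With anti-miR-210 the values were 6.60, 6.53, 6.88 and 6.39 without ischemia and 5.47, 5.80, 5.45 and 5.48 with it. The groups did not overlap in either treatment. The smooth muscle myosin fell 2.42-fold after scramble (−1.27 ± 0.18, adjusted p = 1.05e-05, limma) and 2.07-fold after anti-miR-210 (−1.05 ± 0.18, adjusted p = 9.07e-05, limma).

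Lmod1, the actin nucleator, read 5.54, 4.74, 5.84 and 5.39 without and 4.62, 4.54, 4.26 and 4.38 with ischemia after scramble. After anti-miR-210 it read 5.78, 5.91, 4.72 and 5.19 without and 4.53, 4.44, 4.48 and 4.39 with ischemia. One non-ischemic array in each treatment, at 4.74 and 4.72, lay close above the highest ischemic array, and the groups did not overlap. The changes were −0.93 ± 0.24 (adjusted p = 0.00328, limma) and −0.94 ± 0.24 (adjusted p = 0.00302, limma). Of the ischemic arrays, 2 of 4 after scramble and 3 of 4 after anti-miR-210 detected the probe. With array brightness as a covariate the call after scramble was lost (−0.72, adjusted p = 0.126).

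The size of several of these falls depended on the background correction. Without it the changes after scramble were −1.84 for Abcc9 ILMN_3104271, −0.53 for Higd1b, −0.64 for Myh11 and −0.32 for Lmod1, and that of Lmod1 after anti-miR-210 was −0.33, each still called. With the authors' normalized values Abcc9 ILMN_3104271 was at −1.97 and Higd1b at −0.66 after scramble, also called.

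**Figure D2:**
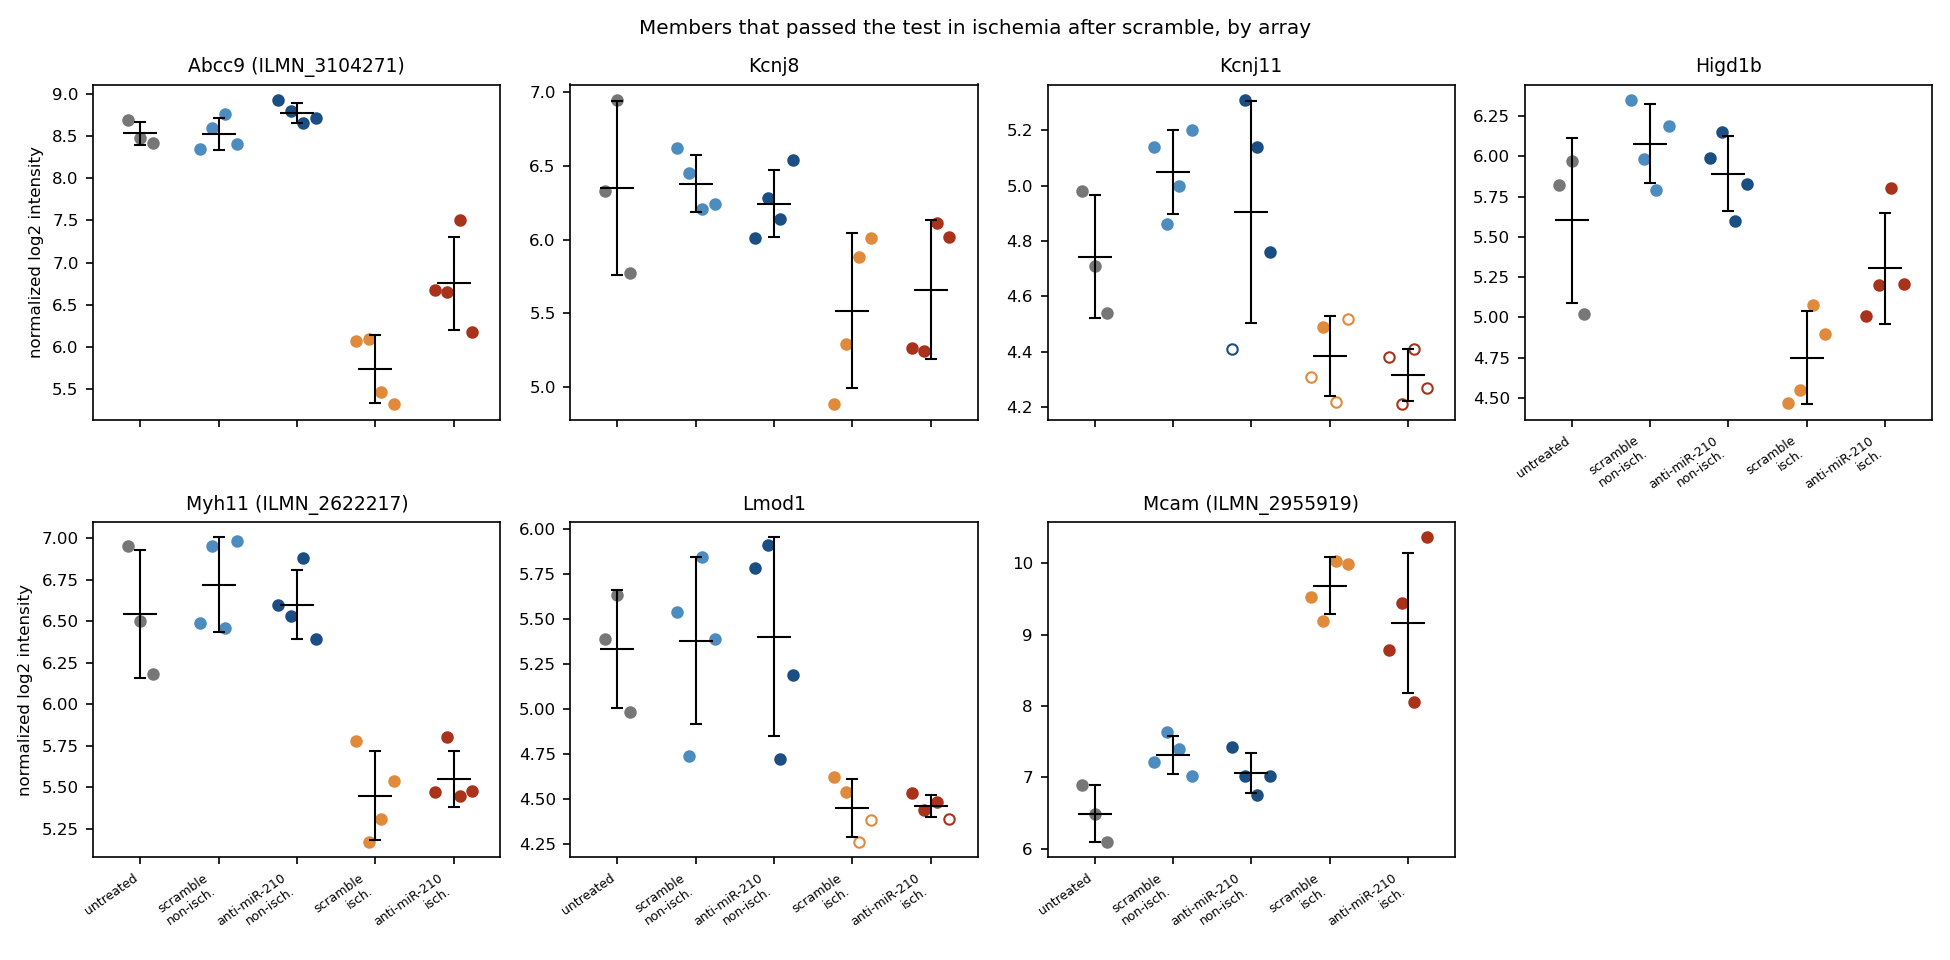
Normalized log2 intensity by array for members that passed the test in ischemia after scramble, by the 5 groups, with the mean ± SD (n = 3 untreated, 4 in each other group); for Mcam the probe with the highest mean is drawn. Open points are arrays where the probe was not detected. The ischemic values of Abcc9 lie between 5.32 and 7.51 and the others between 8.35 and 8.93.

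Mcam, the adhesion molecule also carried by endothelium, was the only member gene called higher, and each of its 3 probes passed in both treatments. Its probe ILMN_2955919 read 7.21, 7.63, 7.39 and 7.01 on the scramble non-ischemic arrays and 9.52, 9.19, 10.03 and 9.99 on the scramble ischemic arrays, while with anti-miR-210 it read 7.43, 7.02, 6.75 and 7.01 and then 8.78, 9.44, 8.05 and 10.36. Every ischemic array lay above every non-ischemic array. The rise was 5.19-fold after scramble (2.37 ± 0.35, adjusted p = 1.21e-05, limma) and 4.30-fold after anti-miR-210 (2.11 ± 0.35, adjusted p = 4.88e-05, limma). Probes ILMN_2614531 and ILMN_1229960 changed by 1.97 and 2.09 after scramble and by 1.59 and 1.38 after anti-miR-210. Without background correction these were 1.30 and 1.40 after scramble, and ILMN_2614531 was at 0.95 after anti-miR-210, each still called.

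The anti-miR-210 ischemic arrays differed among themselves in all 3 Mcam probes. Replicate 3 was lowest, at 8.05, 6.35 and 6.32, and replicate 4 highest, at 10.36, 8.53 and 8.52. Endothelial markers averaged 7.50, 8.11, 7.60 and 8.49 on replicates 1 to 4 of that group. Their part in the Mcam values was not tested.

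Rgs5, the G protein regulator, varied by over 1 log2 unit within every group. It read 8.74, 8.63, 8.93 and 5.93 on the scramble non-ischemic arrays and 7.54, 7.60, 8.11 and 4.34 on the scramble ischemic arrays, the last of which did not detect it. With anti-miR-210 it read 6.05, 6.02, 9.02 and 8.84 without ischemia and 6.75, 4.95, 8.07 and 7.59 with it, and the untreated arrays read 7.88, 6.04 and 8.41. In both muscles after scramble replicate 4 was the low array, and in both muscles after anti-miR-210 replicates 1 and 2 were below replicates 3 and 4.

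The within-group SD of Rgs5 was 1.52, against 0.23 to 0.84 for the other members' kept probes. Its change was −1.16 ± 0.94 (95% interval −3.12 to 0.81, adjusted p = 0.336, limma) after scramble and −0.64 ± 0.94 (−2.61 to 1.32, adjusted p = 0.617) after anti-miR-210. These intervals come from a fit that takes the arrays as unpaired, and they hold both no change and falls as large as those of Higd1b or Myh11. Whether arrays of the same number come from the same mouse is not in the labels. With a replicate block within each oligonucleotide, chosen after seeing the data, Rgs5 was called lower after scramble (−1.16, adjusted p = 0.00367, limma). It was not called after anti-miR-210.

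Pdgfrb, the PDGF receptor of mural cells, read 5.65, 5.46, 6.18 and 6.41 on the scramble non-ischemic arrays and 5.81, 5.82, 6.77 and 5.98 on the scramble ischemic arrays. With anti-miR-210 it read 6.01, 5.93, 5.56 and 5.86 and then 5.88, 6.72, 6.13 and 6.55. The groups overlapped in both treatments. The changes, 0.17 ± 0.26 (95% interval −0.37 to 0.71, adjusted p = 0.636, limma) and 0.48 ± 0.26 (−0.06 to 1.02, adjusted p = 0.138), were not called.

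Cspg4, the proteoglycan NG2, was dim, detected on 16 arrays, and read between 4.32 and 5.59 on all arrays. Its changes were 0.15 ± 0.24 (95% interval −0.36 to 0.66, adjusted p = 0.651, limma) and 0.23 ± 0.24 (−0.28 to 0.74, adjusted p = 0.473). The groups overlapped in both treatments, and arrays at the detection limit occurred in the non-ischemic groups.

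**Figure D3:**
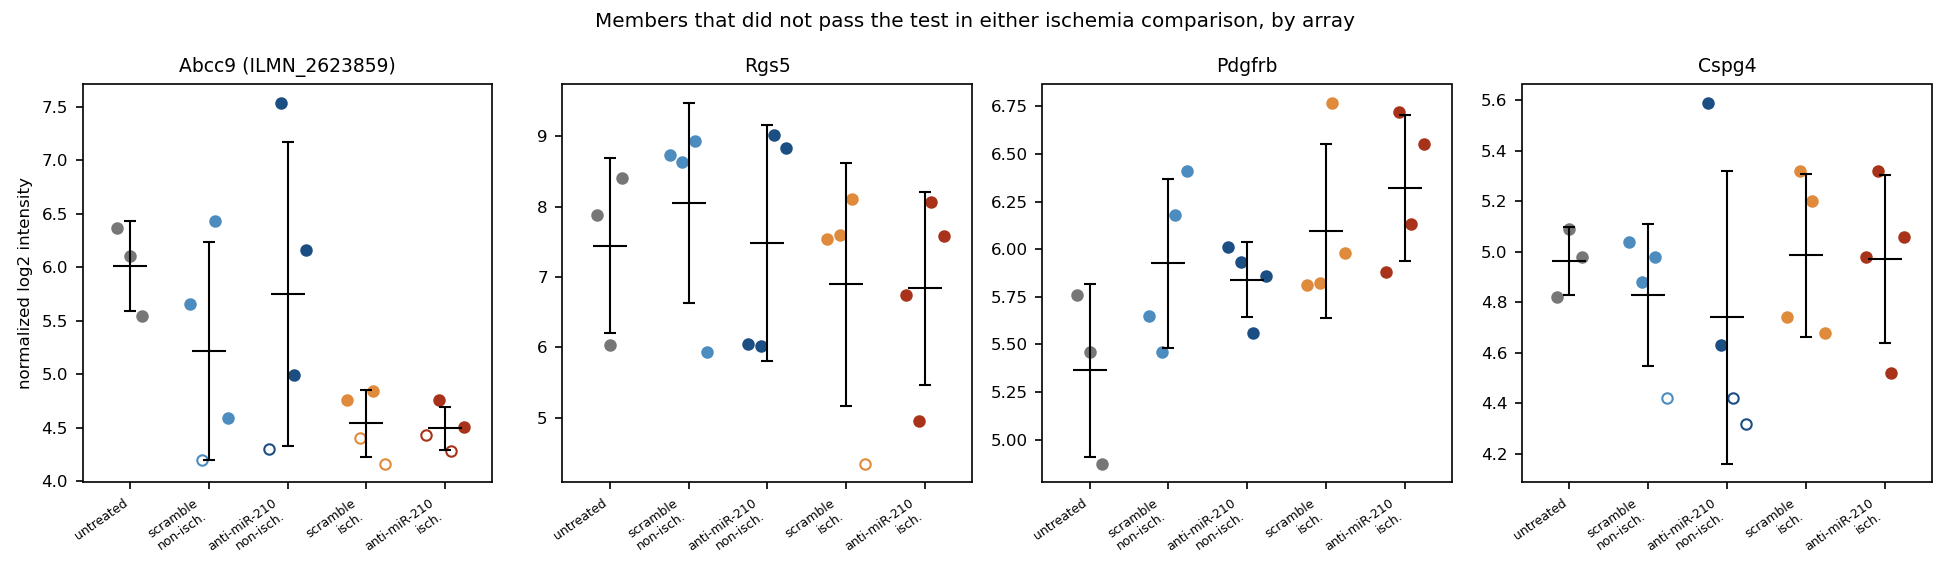
Normalized log2 intensity by array for the 4 probes that passed the test in neither ischemia comparison, by the 5 groups with the mean ± SD (n = 3 untreated, 4 in each other group). Open points are arrays where the probe was not detected. Rgs5 splits into high and low arrays within groups, from 4.34 to 9.02.

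The comparison of anti-miR-210 with scramble in ischemic muscle asks what differed there between the 2 oligonucleotides. How far miR-210 was blocked was not measured here. Of the 13 probes, 1 was higher and 12 were not called, against 0.896% called in either direction and 0.228% higher over all probes. The member was Abcc9 at ILMN_3104271, at 6.75 ± 0.56 (SD, n = 4) with anti-miR-210 and 5.74 ± 0.40 (SD, n = 4) with scramble. The other kept Abcc9 probe, ILMN_2623859, was at 4.50 and 4.54 and was not called (−0.04 ± 0.52, adjusted p = 0.986, limma). For ILMN_3104271 the anti-miR-210 arrays all lay above the scramble ones, with the lowest at 6.18 against the highest at 6.09. The difference was 2.02-fold (1.01 ± 0.23, 95% interval 0.54 to 1.49, adjusted p = 0.044, limma).

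This call was near its threshold. It held in 7 of 18 alternative settings, whose adjusted p ran from 0.00316 to 0.806 and whose value ran from 0.50 to 1.21. With array brightness as a covariate, brightness being lower in the scramble ischemic group, the value was 0.50 (adjusted p = 0.806). Without scramble ischemic replicates 3 or 4 or anti-miR-210 ischemic replicates 1, 2 or 3, taken singly, adjusted p ran from 0.056 to 0.143. The difference between the responses to ischemia under the 2 oligonucleotides was itself not called for this probe (0.77 ± 0.32, adjusted p = 0.527, limma), so the fall is not shown to differ between them.

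Among the other members, Higd1b was at 5.31 ± 0.34 with anti-miR-210 and 4.75 ± 0.29 with scramble in ischemic muscle (SD, n = 4 each), a difference of 0.56 ± 0.22 that was not called (95% interval 0.10 to 1.01, adjusted p = 0.203, limma). The 3 Mcam probes differed by −0.52, −0.73 and −0.92 with adjusted p from 0.143 to 0.49. Without anti-miR-210 ischemic replicate 4, probes ILMN_2614531 and ILMN_1229960 were called, at −1.14 and −1.35 (adjusted p = 0.0185 and 0.00137, limma). In the same comparison, on all arrays, median differences were −0.43 for endothelial, 0.55 for macrophage, 0.54 for fibroblast and −0.08 for fibre markers. Only 1 of 8 macrophage markers was called among them, and their part in the member differences was not tested. The intervals of Kcnj8 (−0.43 to 0.71), Myh11 (−0.28 to 0.48) and Lmod1 (−0.49 to 0.51) spanned 0.

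**Figure D4:**
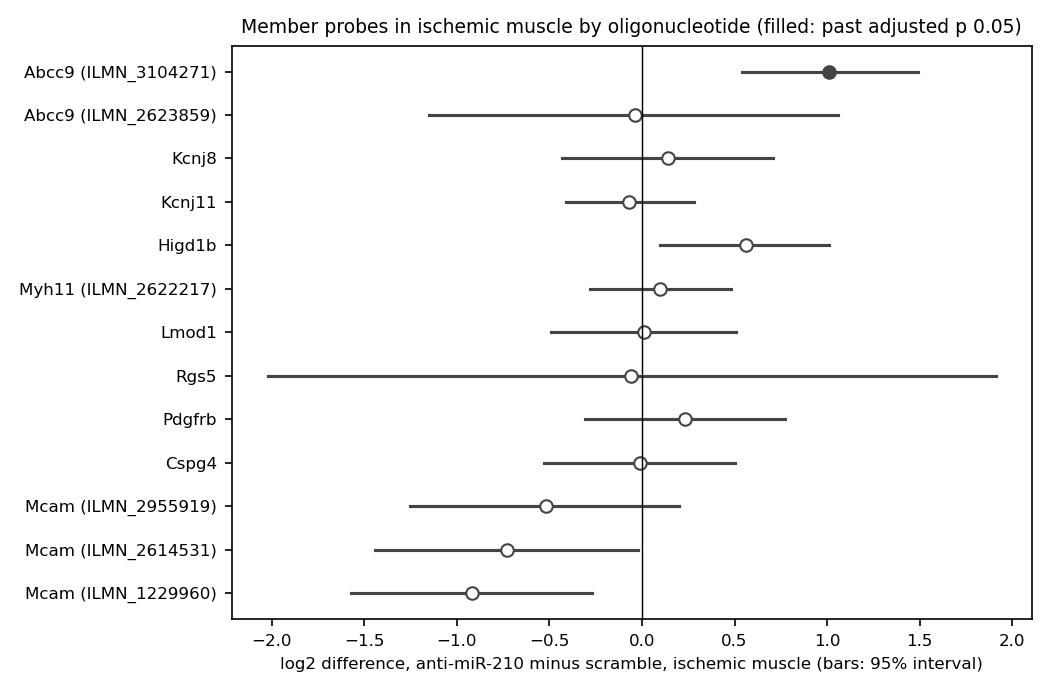
Log2 difference of the 13 probes between anti-miR-210 and scramble in ischemic muscle, with 95% intervals (n = 4 arrays each). The filled point, Abcc9 ILMN_3104271 at 1.01, is the probe past adjusted p 0.05.

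For the difference of the ischemia responses, 0 of 13 member probes were called, against 0.0142% of all probes, and the lowest adjusted p of a member was 0.527. Anti-miR-210 against scramble in non-ischemic muscle gave 0 of 13 (background 0.00474%; lowest adjusted p 0.928). In that comparison limma called 1 probe over the array and 1420 had an unadjusted p under 0.05.

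Against untreated muscle, 0 of 13 were called for scramble non-ischemic arrays (background 2.64%, lowest adjusted p 0.227) and 0 of 13 for anti-miR-210 non-ischemic arrays (background 5.54%, lowest adjusted p 0.327). Mcam stood nearest the threshold: ILMN_1229960 read 5.37, 5.23 and 5.11 on untreated arrays and 6.00, 6.03, 6.26 and 6.02 on the scramble non-ischemic arrays, which did not overlap (0.84 ± 0.34, adjusted p = 0.227, limma). Liver transcripts were highest on the untreated arrays, and their part in this difference was not tested.

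Genes related to these members, from lists chosen by function, were called in both directions. Against 48.9% of all probes called after scramble and 48.5% after anti-miR-210, the genes called were 2 and 1 of 4 in the KATP list, 7 and 9 of 20 in the smooth muscle list, 6 and 2 of 14 in the pericyte list and 2 and 4 of 5 in the PDGF list. Of the KATP partners and other inward rectifier potassium channels, 4 of 7 genes were measured: 1 was higher and 1 lower after scramble and 1 lower after anti-miR-210, with medians of −0.20 and −0.33. Kcnj12, an inward rectifier of muscle, fell by 2.60 ± 0.22 after scramble (adjusted p = 1.83e-08, limma) and by 2.70 ± 0.22 after anti-miR-210 (adjusted p = 1.18e-08). Kcnj15 rose by 0.72 ± 0.21 after scramble (adjusted p = 0.00683, limma) and was at 0.42 ± 0.21 after anti-miR-210 (adjusted p = 0.106). Abcc8, the other receptor gene, changed by −0.17 ± 0.16 and −0.37 ± 0.16, and Kcnj2 by −0.23 ± 0.18 and −0.29 ± 0.18, none called.

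Of 23 smooth muscle contractile and regulatory genes, 20 were measured, with 3 higher and 4 lower after scramble and 3 higher and 6 lower after anti-miR-210, and medians of −0.06 and −0.24. Synm, an intermediate filament protein of muscle, fell by 3.65 ± 0.49 (adjusted p = 5.29e-06, limma) after scramble and fell by 2.20 ± 0.49 (adjusted p = 0.00104) after anti-miR-210. Synpo2, an actin-binding protein, fell by 1.92 ± 0.20 after scramble (adjusted p = 1.89e-07, limma) and fell by 1.88 ± 0.20 after anti-miR-210 (adjusted p = 2.45e-07). The transcription factor Srf fell by 1.01 ± 0.16 and fell by 1.15 ± 0.16 (adjusted p = 2.88e-05 and 6.44e-06, limma).

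Des, the muscle intermediate filament desmin, rose by 0.70 ± 0.13 (adjusted p = 0.000204, limma) and by 0.40 ± 0.13 (adjusted p = 0.0188), and Mrtfa, a coactivator of Srf, fell by 0.64 ± 0.18 after anti-miR-210 (adjusted p = 0.00574, limma). Acta2, the smooth muscle actin, chosen after its values were seen, rose by 1.06 ± 0.32 and 1.11 ± 0.32 (adjusted p = 0.009 and 0.00685, limma), with 2 of its 4 kept probes sharing that sign after scramble. Muscle fibres also express Des, Synm and Srf, and the fibre markers changed in both directions, as given above.

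Of 16 pericyte genes, 14 were measured: 3 were higher and 3 lower after scramble, and 1 higher and 1 lower after anti-miR-210, with medians of −0.01 and 0.07. Anpep, an aminopeptidase of pericytes and also of macrophages, rose by 1.95 ± 0.28 and 2.67 ± 0.28 (adjusted p = 1.18e-05 and 2.98e-07, limma). Gucy1a1, a subunit of the nitric oxide receptor guanylyl cyclase, fell by 0.77 ± 0.15 and fell by 0.71 ± 0.15 (adjusted p = 0.000277 and 0.000601, limma), with 3 and 4 of its 4 kept probes sharing the sign. Pla1a, a phospholipase, fell by 0.93 ± 0.23 after scramble (adjusted p = 0.00226, limma).

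Vtn, the matrix protein vitronectin, fell by 1.83 ± 0.46 after scramble (adjusted p = 0.00235, limma) and was at −1.05 ± 0.46 after anti-miR-210 (adjusted p = 0.065). The liver also makes it, and scramble non-ischemic replicate 1 carried liver transcripts, with no test of their part in the fall. Foxs1, a transcription factor of pericytes, was at 0.39 ± 0.19 after anti-miR-210 and not called (adjusted p = 0.1, limma).

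Of 6 genes of the PDGF axis, 5 were measured, with 2 higher after scramble and 3 higher and 1 lower after anti-miR-210 and medians of 0.14 and 1.27. Pdgfb, the ligand for Pdgfrb, rose by 1.87 ± 0.27 and 1.27 ± 0.27 (adjusted p = 1.29e-05 and 0.000709, limma). Pdgfra, the other receptor, rose by 0.80 ± 0.22 and 1.73 ± 0.22 (adjusted p = 0.00569 and 3.29e-06, limma), though its other kept probe had the opposite sign. Pdgfra is also 1 of the 7 fibroblast markers, whose part in the change was not tested. Pdgfrl, a receptor-like protein, rose by 1.47 ± 0.28 after anti-miR-210 (adjusted p = 0.000245, limma) and was at 0.05 ± 0.28 after scramble. Pdgfa, another ligand, fell by 0.79 ± 0.17 after anti-miR-210 (adjusted p = 0.000518, limma) and was at −0.38 ± 0.17 after scramble, and Pdgfc was at 0.14 ± 0.18 and 0.28 ± 0.18, not called.

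**Figure D5:**
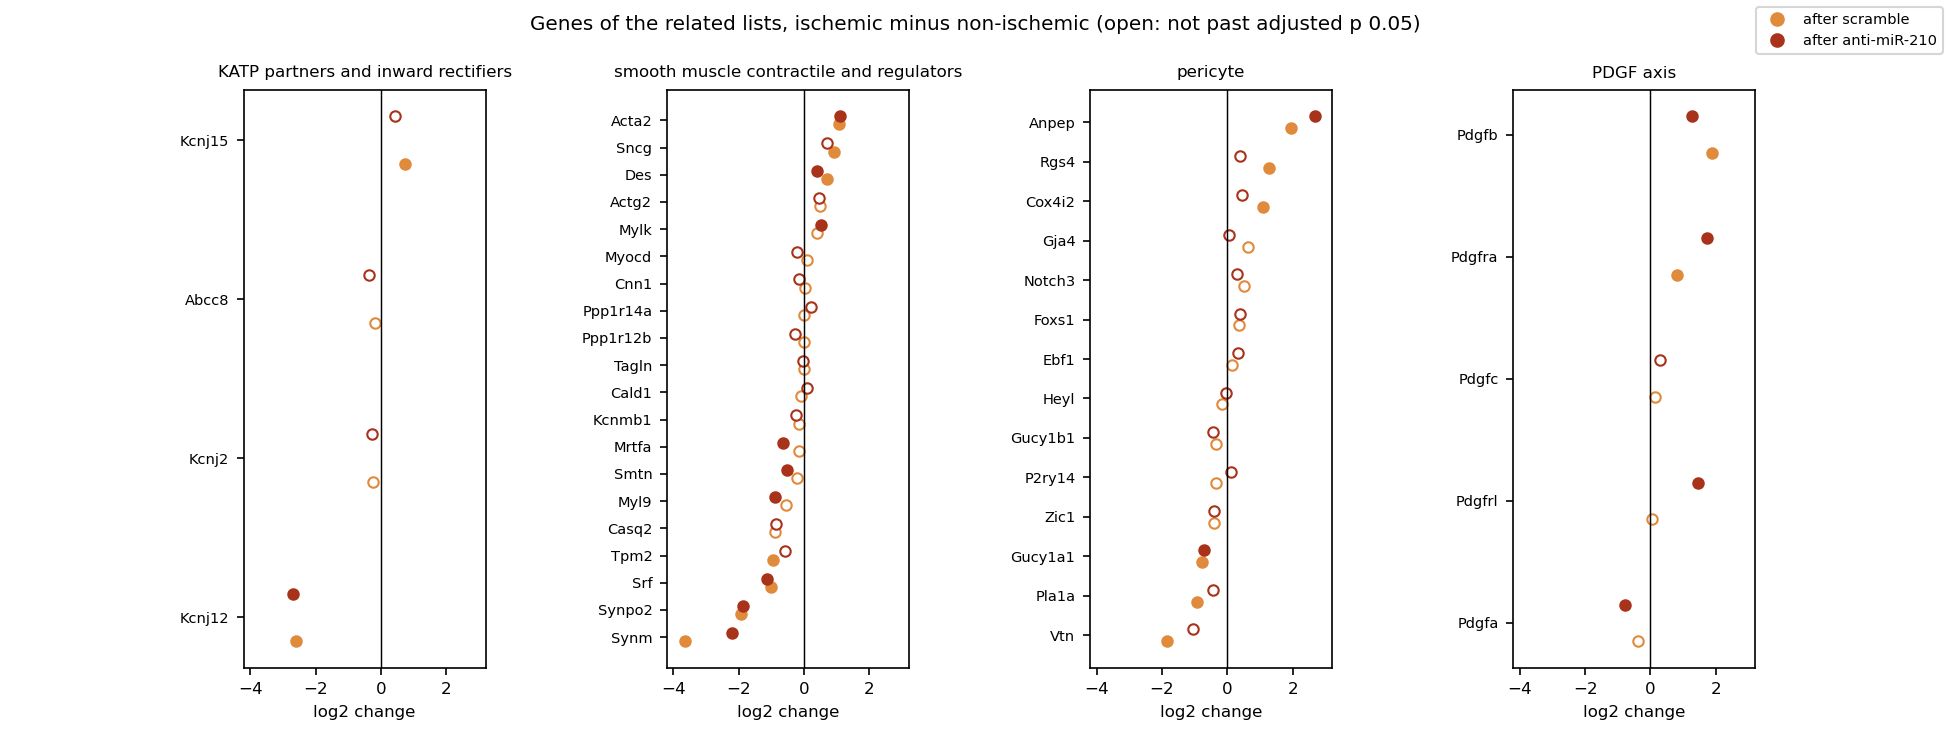
Log2 change, ischemic minus non-ischemic, of each measured gene in the 4 related lists after scramble and after anti-miR-210; filled points passed adjusted p under 0.05. Pdgfb and Anpep lie to the right in both treatments, and Synm, Synpo2 and Kcnj12 to the left.

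For the 7 members with an SD of at least 0.5 over the 19 arrays, which leaves out Kcnj11, Pdgfrb and Cspg4, the 3 genes with the nearest profile were found by the root mean square difference of centred log2 levels among 5686 to 5688 kept probes with the same minimum SD, using the brightest probe of each member. Abcc9 ILMN_3104271 was nearest to Capzb, an actin capping subunit (0.23), Oxct1, a ketone-using enzyme (0.26), and E2f6 (0.26). Myh11 was nearest to Srf (0.19), Zfp93 (0.21) and 4933427G23Rik (0.22), and Mcam ILMN_2955919 to Notch4 (0.28), Fbn1 (0.31) and Sema3f (0.32). Kcnj8 had Higd1b as the second nearest (0.32), after Ubac2 (0.30). For Rgs5 the nearest was Usp38 at a difference of 1.00, farther than the nearest genes of the other 6 members searched, which lay between 0.19 and 0.30.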

How the data were processed

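Expression was measured in 19 muscle samples on Illumina bead arrays. Per the labels' protocols, RNA was extracted with Trizol, purified on Qiagen columns and amplified to biotinylated cRNA with the Ambion MessageAmp kit. The authors deposited an average bead intensity per probe, not normalized, and a detection p-value per probe and array, per the file headers. They also deposited a table of normalized intensities on a linear scale, with a median of 84.6 in every column. How it was normalized is not stated in those sources, and it served as an alternative.

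Intensities were background-corrected with the detection p-values and quantile-normalized with neqc (limma 3.58.1, R 4.3.3, offset 16). Of 45281 probes, the 21083 that 3 or more arrays detected (p under 0.05) were kept. One limma fit with 5 group means used all 19 arrays, p-values were adjusted by Benjamini-Hochberg over all kept probes in each comparison, and an adjusted p under 0.05 was called. A fold is 2 to the fitted log2 difference. Where a probe was detected on no array of the dim group, its signal there was set to the higher of its own and the lowest detected signal on each array. The fold was then taken between the group means and leaves out the spread among arrays. The number of arrays limits the precision.

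Groups and replicate numbers came from the labels. The member genes and related lists were chosen with earlier results of these data known. Of each related list, the 4 genes with the smallest p in each ischemia comparison were named, by the brightest kept probe. The fit was tested on simulated data for ischemia after scramble, with 21083 probes. It recovered 71% of 100 probes changed by a log2 of 1 and 98% of 100 changed by a log2 of 2. It also called 10 unchanged probes. Far fewer probes were changed there than the 48.9% called in the data, so the rates may differ in the data. The alternatives were other normalizations, filters, probe choices, samples in the fit, a brightness covariate, a replicate block and leaving out arrays. Figures were drawn with matplotlib 3.10.9.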

Additional observations from a re-analysis of the deposited data

Results flagged for a closer look

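Of 52 sets of 4 arrays, 1 for each measured probe and group, 4 held an array whose gap to the nearest other exceeded Dixon's 95% critical value, which chance gives in about 1 in 20 sets. Rgs5 gave 2 of them: scramble non-ischemic replicate 4 read 5.93 against 8.63 to 8.93 on the other arrays, and scramble ischemic replicate 4 read 4.34 against 7.54 to 8.11. Myh11 read 5.80 on anti-miR-210 ischemic replicate 2, against 5.45 to 5.48. Mcam ILMN_1229960 read 6.26 on scramble non-ischemic replicate 3, against 6.00 to 6.03.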

How the results depend on the processing

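No called member change turned its sign under any alternative run. Of 1799 alternative values of member changes, 91 had the opposite sign, all of changes not called and none called there. Of 346 alternative values of called changes, 324 kept direction and call and 22 lost the call, 11 of them among 144 that left out 1 array; of 1453 values of changes not called, 14 passed. The count of 1 member between the oligonucleotides in ischemic muscle, Abcc9, became 0 under cyclic loess, without background correction, without the filter, with the brightness covariate, with the authors' normalized values and with only the groups compared in the fit; it became 2 with median scaling, which added Kcnj11 at −0.71 (adjusted p = 0.0143). Leaving out 1 array gave 0 to 3, with 0 without scramble ischemic replicates 3 or 4 or anti-miR-210 ischemic replicates 1, 2 or 3, and 3 without anti-miR-210 ischemic replicate 4. With 1 probe per gene, the probes called higher in each ischemia comparison were 1 in place of 3, since all 3 are Mcam probes. With the brightness covariate the probes called lower after scramble were 3 in place of 6, Kcnj8, Kcnj11 and Lmod1 being lost (adjusted p = 0.0674, 0.184 and 0.126). With only the groups compared, Mcam ILMN_1229960 passed for scramble non-ischemic against untreated (0.84, adjusted p = 0.0331), 1 in place of 0. The cause of these changes was not tested. Without untreated replicates 2 and 3 and scramble non-ischemic replicate 1, which carried liver transcripts, the counts were 6 lower and 3 higher after scramble.

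Same-numbered arrays deviated together in 5 of 22 pairs (correlation over 0.1; range −0.36 to 0.28), and 8 correlated best with their own number. Of these, 7 were among the 8 pairs of ischemic and non-ischemic arrays within an oligonucleotide, with correlations of 0.05 to 0.25, of which 3 were over 0.1. The labels give no pairs, so the main fit took the arrays as unpaired. Whether these 8 pairs each share an animal was not tested. The replicate block left the member counts at 6 lower and 3 higher after scramble and 5 lower and 3 higher after anti-miR-210. A replicate block within each oligonucleotide, chosen after seeing the data, gave 7 and 6 lower, adding Rgs5 after scramble (−1.16, adjusted p = 0.00367) and Abcc9 ILMN_2623859 after anti-miR-210 (−1.25, adjusted p = 0.0191).

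Over all probes, 189 were called between the oligonucleotides in ischemic muscle, against 5888 with median scaling, 62 without the filter, 1 with the brightness covariate and 0 with only the groups compared. Leaving out 1 array gave 17 (anti-miR-210 ischemic replicate 2) to 1649 (replicate 4). Ischemia after scramble gave 10310, against 6428 with the brightness covariate. The difference of responses gave 3, against 1378 with median scaling and 0 to 3 under the other settings of processing. Anti-miR-210 in non-ischemic muscle gave 1, against 8 without the filter, 3 with 1 probe per gene and 0 with only the groups compared. Scramble against untreated gave 557. It gave fewer without background correction (357), without the filter (278) and with only the groups compared (158), and more with cyclic loess (635) and the brightness covariate (787). Anti-miR-210 against untreated gave 1167, against 236 with only the groups compared and 1584 with the brightness covariate. Without untreated replicate 1 these counts were 798 and 1351. Leaving out untreated replicates 2 and 3 and scramble non-ischemic replicate 1 kept only untreated replicate 1 in its group. That array also carried liver transcripts (marker mean 8.06), so no count against untreated muscle free of them is given. Median scaling moved the all-probe median after anti-miR-210 to −0.43, between the oligonucleotides in ischemic muscle to −0.11 and for the difference of responses to −0.13. Signal near background limited Kcnj11, Lmod1, Cspg4, Abcc9 ILMN_2623859 and the scramble ischemic values of Higd1b. Among the related genes named, it limited at least Abcc8, Kcnj2, Kcnj15, Pdgfc and Mrtfa.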
